A study of Caenorhabditis elegans with 2 samples.

Results

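Regions recovered with the homeodomain transcription factor CEH-9 in Caenorhabditis elegans L3 larvae were examined at the genes of small nuclear RNAs (snRNAs) and spliced leader RNAs, using lists from ChIP-seq, the sequencing of immunoprecipitated chromatin. The members were all genes of biotype snRNA in the Ensembl annotation of WBcel235, release 115, together with every gene whose symbol begins with sls-. They numbered 129 of the 46890 nuclear genes of that annotation. All 30 sls- genes already carried the biotype snRNA, and 99 other snRNA genes made up the rest. Both samples came from whole animals of strain OP202, genotype unc-119(ed3) III; wgIs202, males and females pooled, which carry a transgene that expresses CEH-9 fused at its C-terminus to GFP and FLAG. They are biological replicates 1 and 3 of a single condition, so no comparison between conditions was possible. The labels give one line and do not name the promoter that drives the transgene, and CEH-9 binding in untagged worms was not analysed here. One label field calls both libraries input, whereas the assay and target fields call them CEH-9 ChIP-seq, and the files were made as ChIP lists with a control alignment.

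Spliceosomal snRNAs, with their Sm and Lsm proteins, form the ribonucleoproteins that recognise splice sites and remove introns. Spliced leader RNAs are donors in trans-splicing, in which the first bases of the RNA, the leader, are joined to the 5′ ends of other transcripts. In C. elegans the SL1 leader (sls-1 genes) is joined to most trans-spliced messages. The SL2 leaders (sls-2 genes) go mainly to the downstream genes of operons. Both kinds of RNA come from short genes whose core promoter elements lie within a short distance of the RNA start.

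Each deposited list gives regions with a signal value from the authors' peak caller. The pooled list held 10489 regions of 316 bp, and the replicate lists held 30000 regions each, of 304 bp in replicate 1 and 384 bp in replicate 3, which by their description include background. At a q-value under 0.05 there were 28 pooled regions, 3048 regions of replicate 1 and 24 of replicate 3. A list of 45 reproducible peaks was also deposited. Read depth is unknown from these files, and signal values are on a separate scale in each list, so that levels were compared across lists by rank. For each gene the region with the highest signal value was taken among summits from 1000 bp upstream to 200 bp downstream of an annotated start, its start window.

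The sequences at the strongest members come first, because the regions described further on lie over them. The 4 genes sls-2.1, sls-2.2, sls-2.3 and sls-2.4 begin with the same 22 bases. Among the 18 sls-2 genes there were 11 different versions of these first 22 bases. In the 100 bases upstream, the same 4 genes share 1 stretch of 15 bases, which lies from 65 to 51 bases before the start of sls-2.1. This stretch occurred 4 times in the nuclear genome on both strands, and all 4 sites were upstream of these genes. The genes sls-2.1, sls-2.2 and sls-2.3 also share the 17 bases directly before the start, which sls-2.4 does not have. The lines below give the reference sequence (RefSeq copy of WBcel235) from 100 bases upstream to the first 24 bases of each gene, on the gene's strand. Lower case is upstream sequence, and capitals mark the shared stretch and the start of the RNA. The first 3 genes lie on chromosome II, at chrII:5844765-5844888 (+), chrII:5543498-5543621 (+) and chrII:5544250-5544373 (-).
sls-2.1: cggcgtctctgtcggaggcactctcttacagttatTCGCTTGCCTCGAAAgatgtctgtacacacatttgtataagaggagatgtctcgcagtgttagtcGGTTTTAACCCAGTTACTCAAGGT
sls-2.2: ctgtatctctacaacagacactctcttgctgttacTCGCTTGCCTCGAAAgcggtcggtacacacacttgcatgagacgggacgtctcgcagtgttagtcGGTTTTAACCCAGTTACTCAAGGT
sls-2.3: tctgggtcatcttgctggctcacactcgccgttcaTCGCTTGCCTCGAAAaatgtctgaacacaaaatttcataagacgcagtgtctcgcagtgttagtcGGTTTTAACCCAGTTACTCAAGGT
Genes sls-2.12 (chrIV:5261813-5261936, +) and sls-2.14 (chrIII:11090500-11090623, -) are shown for contrast, as 2 of the 14 sls-2 genes that lack the stretch, with only the start of the RNA in capitals.
sls-2.12: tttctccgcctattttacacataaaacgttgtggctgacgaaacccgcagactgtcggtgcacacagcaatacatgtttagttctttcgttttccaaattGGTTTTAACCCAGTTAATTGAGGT
sls-2.14: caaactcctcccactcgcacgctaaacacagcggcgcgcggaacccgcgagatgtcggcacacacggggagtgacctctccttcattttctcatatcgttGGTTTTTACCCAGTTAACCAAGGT

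Other words recurred upstream of other snRNA genes, and some of them also upstream of spliced leader genes. Each was counted on either strand in the 100 bases before the start. GCGGAAC stood upstream of 4 of the 30 spliced leader genes, 13.3%, and 28 of the 99 other snRNA genes, 28.3%, against 0.499% of all genes. Its median position in the other snRNA genes was 62 bases before the start. TGTCGGT was found upstream of 7 spliced leader genes, 23.3%, all of them sls-2 genes, and 19 other snRNA genes, 19.2%, against 0.546% of all genes. Of those 19, 13 were in the group of similar genes around C47F8.9, described below. TATATAA was found upstream of 0 spliced leader genes and 18 other snRNA genes, 18.2%, against 3.52% of all genes. Of those 18, 15 were in the group around R07E5.16, in which 14 genes have identical RNA. The shorter word TATAA stood upstream of 27.9% of the members, against 29.3% of all genes. A match to such a word is a description of the sequence and not a binding site. The next lines give the same stretch for R07E5.16 WBGene00014543 (chrIII:10989579-10989702, +), F54D8.7 WBGene00195000 (chrIII:5080875-5080998, -) and, as a copy with no region in any list, R07E5.16 WBGene00014430 (chrIV:13435863-13435986, -). Capitals mark the word GCGGAAC where present, the word TATATAA, and the start of the RNA.
WBGene00014543: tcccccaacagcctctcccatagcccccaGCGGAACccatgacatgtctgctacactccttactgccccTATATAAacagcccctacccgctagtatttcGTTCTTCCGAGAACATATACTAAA
WBGene00195000: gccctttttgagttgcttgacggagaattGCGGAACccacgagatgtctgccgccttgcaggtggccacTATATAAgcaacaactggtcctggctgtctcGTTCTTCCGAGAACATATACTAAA
WBGene00014430: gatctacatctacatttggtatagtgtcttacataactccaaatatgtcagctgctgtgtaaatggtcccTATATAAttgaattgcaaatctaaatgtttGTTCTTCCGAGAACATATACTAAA
The last pair are the copies of T11F9.15, WBGene00014291 (chrV:11980018-11980141, +) and WBGene00014517 (chrV:11478048-11478171, +), whose RNA sequences are identical. Capitals mark TGTCGGT, which the second copy lacks, and the start of the RNA.
WBGene00014291: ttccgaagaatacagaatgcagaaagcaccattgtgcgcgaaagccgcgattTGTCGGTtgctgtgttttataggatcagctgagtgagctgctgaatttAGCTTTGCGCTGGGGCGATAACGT
WBGene00014517: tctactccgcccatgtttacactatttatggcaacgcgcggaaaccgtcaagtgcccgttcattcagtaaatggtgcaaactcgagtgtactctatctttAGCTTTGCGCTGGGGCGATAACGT

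Having a region of any strength was no more frequent among the members than among genes in general, whereas a few members had very strong regions placed directly on their starts. A pooled region was present in the start window of 15 of the 129 members, 11.6%, against 12.6% of all genes. In the list of replicate 1 the count was 41 members against 35.7% of all genes, and in that of replicate 3 it was 32 members against 29.8%. Of the 129 members, 66 had no region in any of these lists. This count was not made over all genes, so it cannot be read as a trait of the members. Among the 1000 strongest pooled regions, by contrast, were those of 6 members, 4.65%, against 1.57% of all genes and 3.24% of the non-coding genes other than piRNA genes and pseudogenes. The 6 were the spliced leader genes sls-2.1, sls-2.2 and sls-2.4 and the snRNA genes R07E5.16 WBGene00014543, F54D8.7 WBGene00195000 and T11F9.15 WBGene00014291. In replicate 1 the same count was 6 members against 1.68% of all genes, and in replicate 3 it was 2 members against 1.25%. No test was made on these counts, because copies of a gene share sequence and neighbouring genes share regions.

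**Figure D1:**
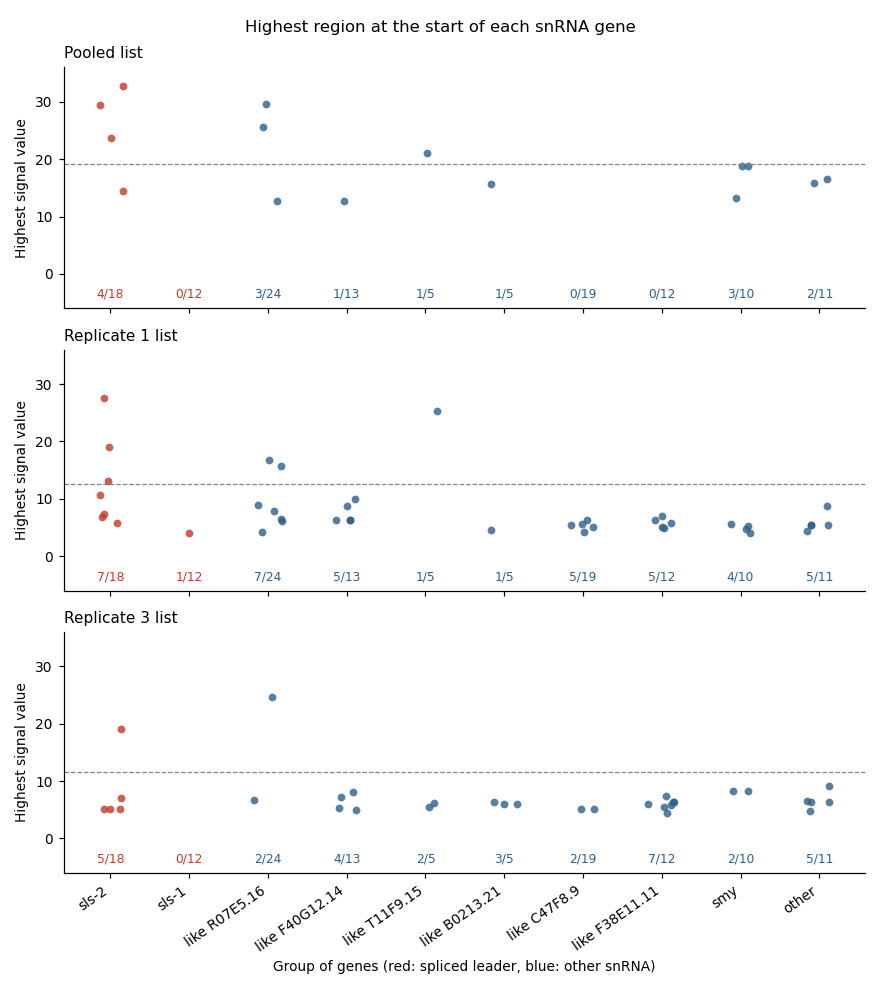
Highest signal value in the start window of each gene (y axis, in the units of each list) for the pooled list, replicate 1 and replicate 3, by group of genes on the x axis. Each point is 1 gene with a region, the numbers under the points give genes with a region out of genes in the group, and the dashed line is the signal value of the region ranked 1000. In the pooled list 3 sls-2 genes and 3 other snRNA genes stand above that line, and in replicate 3 only 1 of each does.

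The strongest member was sls-2.1, an SL2 spliced leader gene on chromosome II (5844865 to 5844974, + strand). Its region had a signal value of 32.8 in the pooled list, where it ranked 29. It had 27.6 in replicate 1, rank 16, and 6.99 in replicate 3, rank 10846. The gene was therefore near the top of one replicate and inside the bulk of the other. The pooled summit lay in intergenic sequence 41 bp upstream of the start, and the summits of the replicates were 9 bp apart. The region (chrII:5844666-5844981) also fell in the window of the protein-coding gene H41C03.3, whose start is 953 bp away. Only sls-2.1 had a peak in the reproducible list, 1 of 129 members against 0.0981% of all genes.

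Among the spliced leader genes only sls-2.2, on chromosome II (5543598 to 5543707, + strand), was strong in both replicates. Its signal value was 29.4 in the pooled list, rank 61, with 13.1 in replicate 1, rank 848, and 19.0 in replicate 3, rank 17. The pooled summit was 19 bp inside the gene, in its exon and in an overlapping non-coding RNA gene of the opposite strand, C17C3.23. The replicate summits were 46 bp apart. Its neighbour sls-2.3 faces it, with the starts 675 bp apart. That gene had no pooled region, 6.87 in replicate 1 at rank 10358 and none in replicate 3. These 2 genes have the same first 24 bases and the same upstream stretch of 15 bases, yet rank far apart.

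The third strong spliced leader gene was sls-2.4, with a pooled signal value of 23.8 at rank 251. It had 19.0 in replicate 1, rank 104, and 5.18 in replicate 3, rank 22735, so its place among the strong regions rests on replicate 1. Its pooled summit lay 10 bp upstream of the start, between genes, and 607 bp upstream of the start of egg-5. It was also 110 bp from the start of the non-coding gene R12E2.18. In replicate 1 the summit was nearer to the start of R12E2.18, at 34 bp, than to that of sls-2.4, at 66 bp. The replicate summits at sls-2.4 were 170 bp apart. The fourth, sls-2.9, had a pooled value of 14.5 at rank 4583, close to the median of 14.3 over all genes with a region. It had 10.7 in replicate 1, rank 2241, and no region in replicate 3. Its summit was 273 bp upstream of its own start and 55 bp from the start of another non-coding gene, M01E5.8.

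The sls-2 genes differed among themselves along the line of the shared leader, a split made after the values had been seen and therefore not tested. Of the 4 genes with the leader of sls-2.1, 3 had a pooled region, all among the 1000 strongest and all with the summit within 100 bp of the start. All 4 had a region in replicate 1 within 100 bp of the start, and 3 had a region in replicate 3. Of the other 14 sls-2 genes, 1 had a pooled region, 3 had a region in replicate 1 and 2 in replicate 3. Over all genes the shares in these lists were 12.6%, 35.7% and 29.8%. None of those 14 was among the 1000 strongest in the pooled list. The share of 36-base words around the start that occur once in the genome was 83.1% to 95.1% in the 4 genes and 53% to 100% in the other 14, ranges that overlap.

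No pooled region was found at the 12 sls-1 genes, of which 10 have the SL1 leader at the annotated start of the RNA. All 12 lie in a repeat on chromosome V (17118154 to 17132107). No summit of the pooled list, replicate 1 or replicate 3 fell inside this span of 13954 bp. The nearest pooled summits were 19864 bp before and 8483 bp after it. The sole region in any sls-1 window had a signal value of 4.11 in replicate 1, at rank 28772, and lay 778 bp upstream of WBGene00077488 at the edge of the repeat. Of the 36-base words within 200 bp of a start, a median of 0% occurred once in the genome in the sls-1 genes, against 100% over all genes. Whether reads were kept at such sequence is not stated by the labels or files, so an unbound repeat and one where reads were not placed cannot be told apart in these lists.

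Of the 99 other snRNA genes, 11 had a pooled region, 11.1%, against 12.6% of all genes, and these were 10 distinct regions. Their median signal value was 16.5, compared with 26.6 for the 4 spliced leader genes that had a region and 14.3 over all genes that had one. As a share of genes the spliced leader set stood 2.22 percentage points above the others, a difference that rests on 4 genes and that changed sign with a wider window and in each replicate alone. Without the 12 sls-1 genes the difference was 11.1 percentage points. It had to rise, because none of those 12 had a pooled region, and this alternative was added after seeing the data. Among the 1000 strongest pooled regions were 3 of 30 spliced leader genes and 3 of 99 other snRNA genes. Taken over replicates, the same comparison gave 3 of 30 and 3 of 99 in replicate 1 and 1 of 30 and 1 of 99 in replicate 3. A region in both replicates was present at 11 members, 8.53% against 13.7% of all genes. In 9 of the 11 the summits were within 200 bp of each other, 81.8% against 43.1% over all genes with a region in both replicates. Among the 9, C35D6.6 and C35D6.7 share 1 region in each replicate, with summits 93 bp apart, and were counted as 2 genes.

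Since the annotation does not sort the snRNA genes into the classical families, they were grouped by the identity of their RNA sequence. Some groups were labelled by a word that at least 80% of their sequences contain. The group of R07E5.16, labelled by ACAGAGA, had 24 genes of 93 to 108 bp. It held the highest values of these groups in the pooled list and in replicate 3, while the group of T11F9.15 held the highest in replicate 1. Regions of any strength were no more frequent in it than in genes at large. In this group 3 genes had a pooled region, 12.5% against 12.6% of all genes, 7 had one in replicate 1, 29.2% against 35.7%, and 2 had one in replicate 3, 8.33% against 29.8%. Among the 1000 strongest pooled regions were 2 of its genes, 8.33% against 1.57% of all genes. WBGene00014543, a copy of R07E5.16 on chromosome III (10989679 to 10989780, + strand), had the highest values. It reached 29.6 in the pooled list at rank 57, 16.7 in replicate 1 at rank 207, and 24.6 in replicate 3 at rank 2. That last value was the highest at any gene start in replicate 3. The pooled summit lay 32 bp upstream of the RNA start, inside an intron of dhc-4, which is annotated as a protein-coding gene on the same strand, and the replicate summits were 14 bp apart. Only WBGene00014543 and sls-2.2 were among the 1000 strongest regions of both replicates within 200 bp, 2 of 129 members against 0.0874% of all genes.

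The RNA of WBGene00014543 has 14 identical copies, itself included, and the other copies lacked its high values. A region was present at 5 of the 14 in replicate 1, against 35.7% of all genes, and at 1 in replicate 3, against 29.8%. A pooled region was present at 2 of the 14, against 12.6% of all genes. Among the 1000 strongest pooled regions was 1 of the 14, against 1.57% of all genes. The other copy with a pooled region was WBGene00235209 on chromosome IV. It had 12.7 in the pooled list at rank 8150, with the summit 251 bp upstream and 19 bp from the start of a piRNA gene. It had 8.97 in replicate 1 and none in replicate 3. WBGene00014430, whose upstream sequence is printed above and lacks GCGGAAC, had no region in any list. Its start is also more repetitive, with 32.2% of 36-base words found once compared with 80.3% at WBGene00014543.

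F54D8.7 WBGene00195000, on chromosome III (5080798 to 5080898, - strand), belongs to the same group and also carries GCGGAAC and TATATAA upstream. It had 25.6 in the pooled list, rank 149, 15.7 in replicate 1, rank 281, and 6.7 in replicate 3, rank 12110. The pooled summit was intergenic and 10 bp upstream of the start, while the replicate summits were 183 bp apart. In the group as a whole, GCGGAAC stood upstream of 5 genes, of which 3 had a pooled region and 2 were among the 1000 strongest. Over all members with the word, 5 of 32 had a pooled region, 15.6% against 18.4% of the 234 genes of the genome with it, and 2 were among the 1000 strongest, 6.25% against 2.56%. The word stood upstream of 10 genes of the F40G12.14 group, 6 of the F38E11.11 group and 5 smy genes, of which 1, 0 and 1 had a pooled region, and of 4 sls-2 genes and 2 of the T11F9.15 group, of which none did.

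T11F9.15 WBGene00014291, on chromosome V (11980118 to 11980261, + strand), was the other strong snRNA gene. Its pooled region had a signal value of 21.1 at rank 535. In replicate 1 it had 25.2 at rank 24, and in replicate 3 no region was listed in the window. The pooled summit lay 29 bp upstream of the start, in an exon of the non-coding gene C52E4.14 on the same strand. It also lay 366 bp upstream of the start of snr-4, which encodes an Sm protein of the spliceosomal ribonucleoproteins, so an snRNA gene and a gene for a protein partner of snRNAs share this region. The identical copy WBGene00014517 had no region in any list, although the starts were similarly unique, with 68.6% of 36-base words found once at WBGene00014291 and 69.4% at WBGene00014517. The other 3 genes of this group of 5 had no pooled region.

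**Figure D2:**
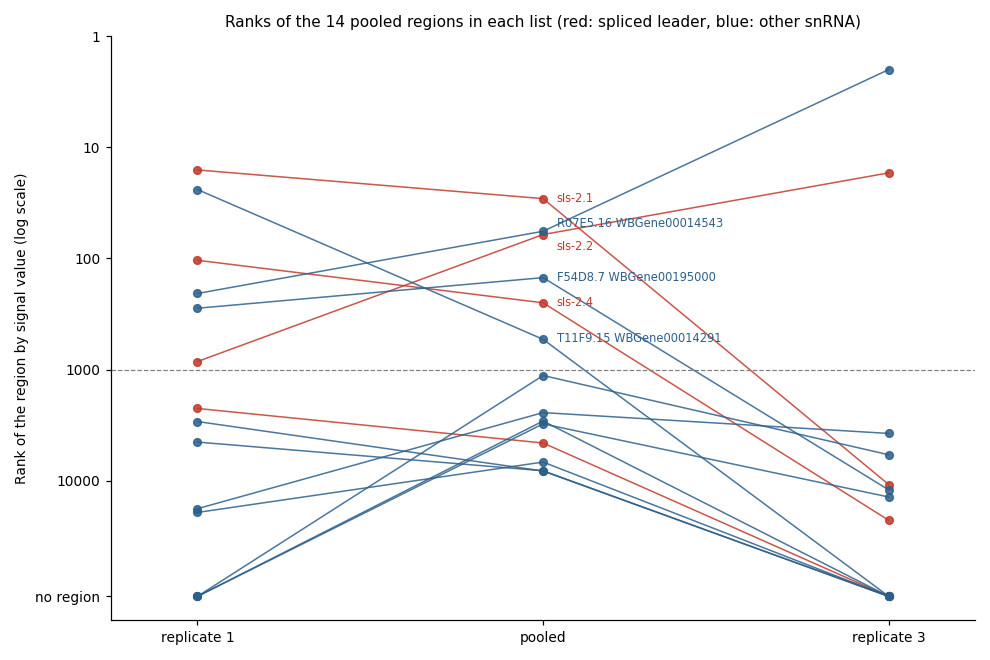
Rank by signal value (y axis, log scale, strongest at the top) of the 14 distinct pooled regions at snRNA and spliced leader genes in replicate 1, the pooled list and replicate 3 (x axis). Each line is 1 region, smy-9 and smy-10 share one, and the dashed line is rank 1000. Of the 6 regions above the line in the pooled list, all 6 are above it in replicate 1 and only R07E5.16 WBGene00014543 and sls-2.2 are above it in replicate 3.

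The remaining groups had no region among the 1000 strongest of any list. The 13 genes like F40G12.14, labelled by TTACCTG, had 1 pooled region, 7.69% against 12.6% of all genes, at F40G12.14 WBGene00014371. Its signal value was 12.7 at rank 8191, with a summit 16 bp inside the gene. This gene had 10.01 in replicate 1, rank 2938, and none in replicate 3. The 19 genes like C47F8.9, labelled by GTAGTA, had no pooled region. They had 5 regions in replicate 1 of 4.15 to 6.25, 26.3% against 35.7% of all genes. In replicate 3 they had 2, of 5.13 and 5.16, 10.5% against 29.8%. The 12 genes like F38E11.11, labelled by CTTTTAC, had no pooled region. However, 5 had a region in replicate 1, 41.7% against 35.7% of all genes, and 7 in replicate 3, 58.3% against 29.8%. Their highest values were 7.03 in replicate 1, at rank 9735, and 7.45 in replicate 3, at rank 8521. In the group of B0213.21, B0213.22 WBGene00194989 had a pooled region of 15.7 at rank 3082, but its summit was 957 bp upstream, in an exon of cyp-34A6.

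The SmY RNA genes (smy), small Sm-bound RNAs found in nematodes and linked to trans-splicing, are counted here with the other snRNA genes. Of the 10, smy-9, smy-10 and smy-11 had a pooled region, 30% against 12.6% of all genes, in 2 distinct regions. Genes smy-9 and smy-10 share 1 region of 18.8 at rank 1132, just outside the 1000 strongest, whose limit was a signal value of 19.1. Its summit was 33 bp upstream of smy-10 and 599 bp upstream of smy-9. In replicate 1 neither gene had a region, and in replicate 3 both windows held 1 region of 8.28 at rank 5848. The region of smy-11 had 13.3 at rank 6803, with the summit 486 bp upstream, in an exon of Y57G11C.38. Of the 11 snRNA genes in no group, T10H4.17 WBGene00189973 had a region in all lists, with 16.5 in the pooled list, 5.43 in replicate 1 and 9.2 in replicate 3. F20D1.21 WBGene00235175 had 15.9 in the pooled list only, 820 bp upstream and 77 bp from the start of F45B8.5.

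Strong regions at the members sat on the RNA start. The summit of the highest pooled region was within 100 bp of the start in 9 of 129 members, 6.98%. The share was 2.76% over all genes and 5.17% over the non-coding genes other than piRNA genes and pseudogenes. In those 9 the median signal value was 23.8 and 6 were among the 1000 strongest, while in the 6 members with a more distant summit the median was 15.1 and none was among the 1000 strongest. Over all genes, 15% of those with a near summit and 11.7% of those with a distant one were among the 1000 strongest. Both conditions together, a region among the 1000 strongest and a summit within 100 bp, held for 6 members, 4.65%. They held for 0.414% of all genes and 1.28% of those non-coding genes. In the replicates, all 6 members among the 1000 strongest of replicate 1, and both in replicate 3, had the summit within 100 bp. At any strength, a summit within 100 bp was found at 14 of 129 members in replicate 1, against 3242 of 46890 genes. In replicate 3 it was found at 8 of 129 members, against 2807 of 46890 genes, a similar share. The member's own start was the nearest annotated start to the summit at 9 of the 15 genes with a pooled region.

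**Figure D3:**
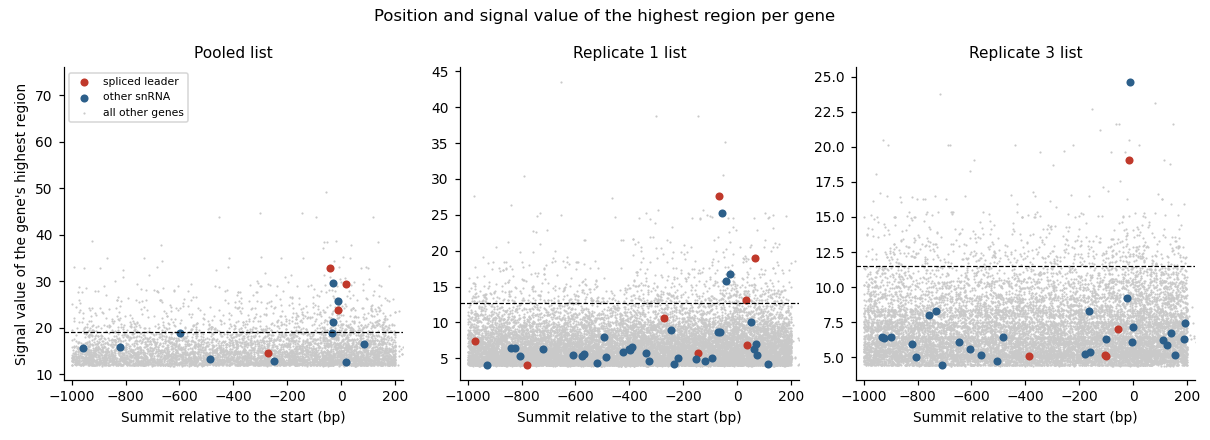
Signal value of the highest region of each gene (y axis) against the position of its summit relative to the start (x axis, bp, negative upstream) in the pooled, replicate 1 and replicate 3 lists. Red points are spliced leader genes, blue points other snRNA genes and grey points all other genes, and the dashed line is the signal value at rank 1000. The red and blue points above the line, 6, 6 and 2 in the lists from left to right, all lie within 100 bp of the start.

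By the q-values deposited with the regions, few members passed. No member had a pooled region with a q-value under 0.05, against 0.0682% of all genes, and the closest was sls-2.1 at 0.0526. In replicate 1, 8 members passed, against 4.32% of all genes. They were the 6 named above together with sls-2.9, at 0.0364, and F40G12.14 WBGene00014371, at 0.0477. In replicate 3, WBGene00014543 and sls-2.2 passed, both at 0.0233, 2 members against 0.0533% of all genes. Their pooled q-values were 0.186 for WBGene00014543 and 0.174 for sls-2.2, while sls-2.1 had 0.801 in replicate 3.

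Repeated sequence moved with several of these counts, and its part in them was not tested. At least 90% of the 36-base words within 200 bp of the start occurred once in the genome at 35 members, 27.1%, against 89.9% of all genes. Among those 35 members, 6 had a pooled region, 17.1% against 13.1% of all genes with such starts, and 1 (sls-2.4) was among the 1000 strongest, 2.86% against 1.54%. The other 5 strong members had shares of 68.6% to 85.8%. The 66 members with no region in any list had a median share of 63.9%, compared with 85.8% in the 15 with a pooled region. The groups of sls-1 and of C47F8.9, with medians of 0% and 41.8%, had no pooled region, but neither did the group of F38E11.11, at 83.3%.

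**Figure D4:**
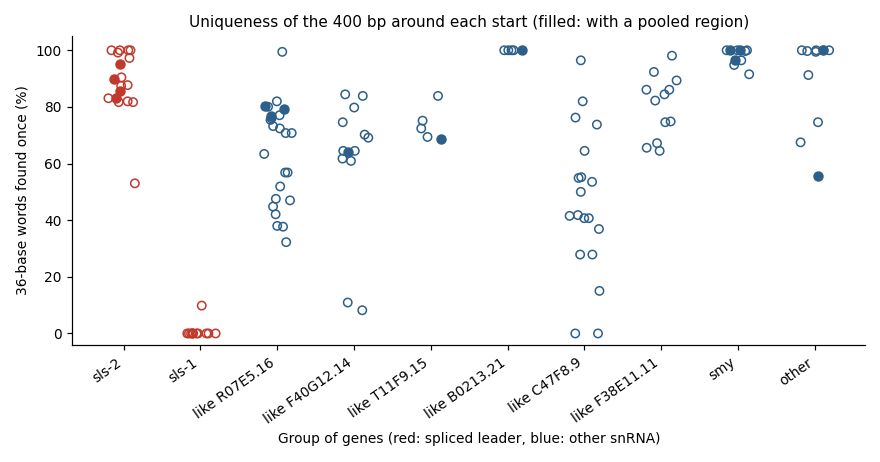
Share of 36-base words that occur once in the genome (y axis, percent) within 200 bp of the start of each gene, by group (x axis). Filled points have a pooled region and open points have none; red points are spliced leader genes and blue points other snRNA genes. The sls-1 genes lie between 0% and 9.84%, and the genes with a pooled region between 55.5% and 100%.

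The sequence at the members' regions was compared with that of all pooled regions within 100 bp of the summit. Median GC content was 48.3% in the 14 member regions, compared with 39.8% in all 10489 pooled regions and 42.3% in the 1000 strongest. The homeodomain-type words TAATTA and TAATTG, on either strand, occurred in none of the 14 member regions. They occurred in 18.3% of all pooled regions and 14.5% of the 1000 strongest. GAGANAGA occurred in 1 of the 14, against 7.23% of all pooled regions and 12.9% of the 1000 strongest. TGATAA occurred in 1 of the 14, against 15.1% of all pooled regions, and AATATT in 2, against 15.6%. With 14 regions such shares are coarse. These are counts of letters in a window and say nothing of the factor's own preference.

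Genes for the proteins that work with these RNAs were followed from a list, of which 55 of 62 symbols matched the annotation. A pooled region was present at 10 of the 55, against 12.6% of all genes. Of the 55, 2 had a region among the 1000 strongest, against 1.57% of all genes. One was snr-4, through the region it shares with T11F9.15 WBGene00014291. The other was lsm-1, an Lsm protein gene on chromosome II, with 19.8 in the pooled list at rank 799, 13.97 in replicate 1 at rank 580 and 5.52 in replicate 3 at rank 19672. Integrator is the complex that processes the 3′ ends of snRNAs. Its 11 matched genes were the most of any protein role, so counts by role favour it. A pooled region was present at 2 of 5 genes listed with the spliced leader ribonucleoprotein and at 4 of 11 matched Integrator genes, against 12.6% of all genes. In replicate 1 a region was present at 8 Integrator genes, against 35.7% of all genes. In replicate 3 one was present at 2, against 29.8%, while 4 of the 7 matched Lsm genes had one. None of the Integrator regions was among the 1000 strongest. Of the 7 Sm protein genes 1 had a pooled region, as did 1 of the 7 matched Lsm genes. Among 5 genes listed with the spliced leader ribonucleoprotein, sna-2 had a pooled region of 15.97 at rank 2865 and sna-3 one of 12.4 at rank 8924. Of 9 matched genes for snRNA transcription, snpc-3.4 had one, with 14.2 at rank 5187. The tri-snRNP genes had 1 in 8, and the 5 matched U1 and U2 protein genes and 3 matched cap and SMN genes had none. None of the 16 genes for 5S rRNA, which alternate with the SL1 genes in the repeat on chromosome V, had a pooled region.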

How the data were processed

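The deposited files are narrowPeak lists on build ce11, whose chromosomes have the lengths of WBcel235. Per the file headers and the deposited descriptions, the authors called regions and background on each replicate and on the pooled alignments with the same control alignment, and thresholded them into reproducible peaks. The aligner, the caller and its thresholds were not given in the sources used here. The authors' signal value and −log10 q-value per region were used as deposited. Q-values were taken back from the log10 scale, and mitochondrial regions were left out of ranks.

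Genes and starts came from Ensembl release 115. The highest region with a summit from 1000 bp upstream to 200 bp downstream of a start was recorded per gene, for members and for all genes alike. RNA sequences at least 70% identical by edit distance (edlib 1.3.9.post1) were grouped by single linkage, and groups of at least 5 genes were kept. Words of 36 and 50 bases found once were counted on both strands of the genome (numpy 2.4.6, pandas 2.3.3, Python 3.11.15). The window search was tested on simulated data. No hypothesis test was made. The rule for names took every sls gene with a pooled region, snRNA genes with a region in all lists, the 5 strongest members of each list, the strongest of each group, and listed partner genes among the 1000 strongest. Other named genes, and the words searched upstream, were chosen after their values were seen. The members and lists were chosen with earlier results of these data known. The authors do not state whether replicates share a culture.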

Additional observations from a re-analysis of the deposited data

How the results depend on the processing

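Of 55 alternative values, 35 were classed as the same as the main value, under tolerances that allowed a change in size. For the difference in share these were wide, and values from 2.53 to 11.1 percentage points were classed as the same as 2.22. The value of 11.1 came from leaving out the sls-1 genes, an alternative added after seeing that they had no pooled region. The count of 6 members among the 1000 strongest pooled regions kept to 5 with the 500 strongest and 8 with the 2000 strongest, and to 6 with every window and overlap tried, but ran from 2 to 6 with one replicate left out. The count without replicate 1 was 2. The 4 spliced leader genes with a pooled region became 5 to 8 with one replicate left out, and the 11 other snRNA genes became 27 to 33, since the replicate lists are longer. With 2000 bp upstream the other snRNA genes numbered 24, while all genes reached 20.9%, and within 100 bp of the start, an alternative added after seeing the data, they numbered 6. The difference in share, 2.22 percentage points, reversed to -7.58 with 2000 bp upstream, and ran from -10.6 to -6.67 with one replicate left out. The cause was not tested. The median of the spliced leader genes, 26.6, was 23.8 with 2000 bp upstream and with any overlap, and 5.18 to 9.03 with one replicate left out. The median of the other snRNA genes, 16.5, was 17.6 with 500 bp, 15.5 with 2000 bp, 16.9 with any overlap and 18.8 with regions above the list's median, and 5.82 to 6.31 with one replicate left out. The replicate lists have their own scale. At a q-value under 0.1, 1 member passed, against 0 under 0.05. No paired analysis was possible because there is a single group and no test.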
